A study of Mus musculus with 8 samples.

Results

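The genes described are the nuclear genes for subunits of the mitochondrial respiratory chain and ATP synthase. They were taken from the count table by symbol: Nduf genes of the a, b, c, s and v series, the Sdh genes a to d, and every symbol that starts with Uqcr, Cox4 to Cox8 or Atp5, without symbols marked -ps or -as. This gave 89 of the 55487 genes in the table, under 88 distinct symbols, because Atp5o occurs under a pair of identifiers. Complex I had 38 of them, complex II 4, complex III 8, complex IV 21 and complex V 18. Ndufa4 carries a complex I symbol but was placed with complex IV, where its protein belongs, and Ndufa4l2 was placed with it.

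The respiratory chain lies in the inner mitochondrial membrane and passes electrons from NADH and succinate to oxygen. Complexes I, III and IV pump protons while doing so, and complex V, the ATP synthase, uses the proton gradient to make ATP. Complexes I, III, IV and V are built in part from proteins of mitochondrial DNA, complex II is wholly nuclear, and the nuclear subunits are made in the cytosol and imported. Pluripotent cells lean on glycolysis, and heart muscle on oxidative metabolism, so the balance of these pathways is followed in cardiac differentiation.

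The RNA came from mouse E14-Tg2a embryonic stem cells on day 6 of differentiation in serum-free medium towards precardiac mesoderm. The parental line, with intact Tbx1, and line 4D, labelled Tbx1-/-, gave 4 libraries each, which the series' design text calls biological replicates. Tbx1 encodes a T-box transcription factor of the second heart field and pharynx, and the series' title ties this model to DiGeorge syndrome, outflow tract defects and the drug Minoxidil; none of the 8 libraries is labelled as drug-treated. Line 4D is a single line, so effects of the genotype and of the line itself cannot be told apart, and p-values measure the spread between these cultures. QuantSeq reads the polyadenylated 3′ end of each transcript, so a count does not grow with transcript length. Levels are CPM, counts scaled to a common library total, on edgeR's TMM scale.

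Libraries held 3803561 to 6293907 counts. Tbx1 had 39, 65, 38 and 22 counts in the parental libraries (replicates 1 to 4) and 3, 0, 1 and 0 in the mutant libraries, in the replicate order kept throughout (two-sided exact permutation test, p = 0.0286, the smallest that 70 splits allow). Mutant library 4 stood apart: its median correlation with the others, across genes, was 0.868 against 0.928 to 0.942, and after thinning to equal depth it had 14850 genes with a count against 17664 to 18646. Of 13280 genes tested with edgeR's quasi-likelihood test, 188 (1.42%) had a Benjamini-Hochberg adjusted p under 0.05. Of these, 99 (0.745%) were higher and 89 (0.67%) lower in the mutant line. In bulk RNA, fewer cells of a type and less RNA per cell cannot be told apart.

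Promoter sequence was examined because these genes are known targets of a small set of shared regulators. NRF1 (nuclear respiratory factor 1), the ETS factor GABPA, YY1 and the estrogen-related receptors (ERR) bind many of their promoters. RefSeq promoter windows on GRCm38.p6, from 250 bases before to 50 after a start, were matched by symbol for 63 of the 79 tested subunits, which had 68 windows. The letters searched, on both strands, were GCATGCGC for NRF1, CCGGAAG for ETS factors, AAGATGGC for YY1 and TCAAGGTCA for the ERR. Stretches from 4 windows are shown, ending at the base before the start, with matches in capitals. Cox6a1 was chosen after its window was seen to hold the NRF1 and ETS letters, Cox6b1 for an ETS match close to the start, Atp5g3 for the ERR letters, and Cox7b as the subunit that passed the test. The Cox6a1 stretch is chr5:115348959-115349128 on the minus strand, the Cox6b1 stretch chr7:30626115-30626184 on the minus strand, the Atp5g3 stretch chr2:73911327-73911396 on the minus strand, and the Cox7b stretch chrX:106015600-106015699 on the plus strand.
Cox6a1: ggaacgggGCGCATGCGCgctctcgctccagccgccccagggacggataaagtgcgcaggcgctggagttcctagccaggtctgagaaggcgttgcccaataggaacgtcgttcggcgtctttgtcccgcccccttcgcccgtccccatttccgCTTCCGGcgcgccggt
Cox6b1: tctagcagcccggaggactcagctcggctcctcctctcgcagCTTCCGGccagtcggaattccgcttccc
Atp5g3: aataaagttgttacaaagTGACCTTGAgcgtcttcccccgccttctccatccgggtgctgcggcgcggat
Cox7b: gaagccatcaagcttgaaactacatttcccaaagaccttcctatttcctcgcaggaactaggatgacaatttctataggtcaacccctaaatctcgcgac

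In the Cox6a1 stretch the first run of capitals holds the NRF1 letters on both strands at once, overlapping, and the second holds the ETS letters on the other strand. The Cox6b1 run is again the ETS letters on the other strand, and the Atp5g3 run the ERR letters on the other strand. The whole Cox7b window held none of the 4 motifs. Across the subunits, the NRF1 letters were in 10 of 68 windows (14.7%), against 5.17% of the 12207 windows of tested genes and 2.71% of all 32851 windows. The ETS letters were in 16 windows (23.5%, against 17.4% and 8.86%), the YY1 letters in 9 (13.2%, against 4.45% and 2.75%) and the ERR letters in 2 (2.94%, against 0.246% and 0.423%). The ERR letters were in the windows of Atp5g3 and Sdhd, both with a higher mean in the mutant line and an adjusted p over 0.05. Of the 9 YY1 matches, 8 lay after the start, in the first transcribed bases. At least 1 motif was found for 30 subunits and none for 33. These are matches of letters in a window, not measured binding.

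Across all 5 complexes, transcript levels of the subunits were close in the parental and mutant lines, and 1 of 79 passed the test. That gene was Cox7b, which encodes a small subunit of cytochrome c oxidase (complex IV) and fell by 0.46 on the log2 scale in the mutant line. No subunit was called higher. The median log2 fold change over the 79 was 0.00064, beside 0.0010 over all genes tested, and 40 were above and 39 below 0. The median size of the change, without its sign, was 0.14 on the log2 scale, against 0.24 over all genes. At a mean of at least 50 CPM the gap was smaller, with 0.126 for 62 subunits and 0.145 for 3727 genes. The share called, 1 of 79, is set against the 1.42% of all genes and is near it. Without mutant library 4, the one that stood apart, the median was -0.011 and Atp5g3 and Cox4i2 were called in place of Cox7b.

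At an unadjusted p under 0.05, 3 subunits were higher (Ndufb6, Cox5a and Atp5g3) and 10 lower, beside 6.01% of all genes higher and 5.92% lower. Parental and mutant libraries were fully separate for 4 subunits that were higher (Cox5a, Sdha, Atp5a1 and Atp5g3), with 3.49% of all genes in that state. They were fully separate for 9 that were lower (Ndufa5, Ndufb4, Ndufc1, Uqcrb, Uqcrh, Cox4i2, Cox7a2l and Cox7b among them), against 4.04% of all genes. Differences without overlap were thus found in both directions but were more often lower, with 4 of the 79 higher and 9 lower. All but Cox7b had an adjusted p over 0.05. Of the subunits in this pair of lists, Ndufa5, Ndufb4 and Cox7a2l were picked for naming after their values were seen.

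The data also bound how large the changes could be. For 64 of the 79 subunits (81.0%), the 95% interval of the fold change lay within 1.5-fold in either direction, against 29.4% of all genes tested. Within 2-fold it was 70 subunits (88.6%), against 57.8%. Subunits are abundant, and abundant genes have narrower intervals: their median level was 126 CPM, against 21.6 CPM over all genes. Among genes with a mean of at least 50 CPM, 58 of 62 subunits (93.5%) and 77.0% of 3727 genes had an interval within 1.5-fold. Between cultures of a line, the median SD of a subunit on the log2(CPM + 1) scale was 0.14 in the parental and 0.18 in the mutant line, against 0.29 and 0.36 over all genes.

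**Figure D1:**
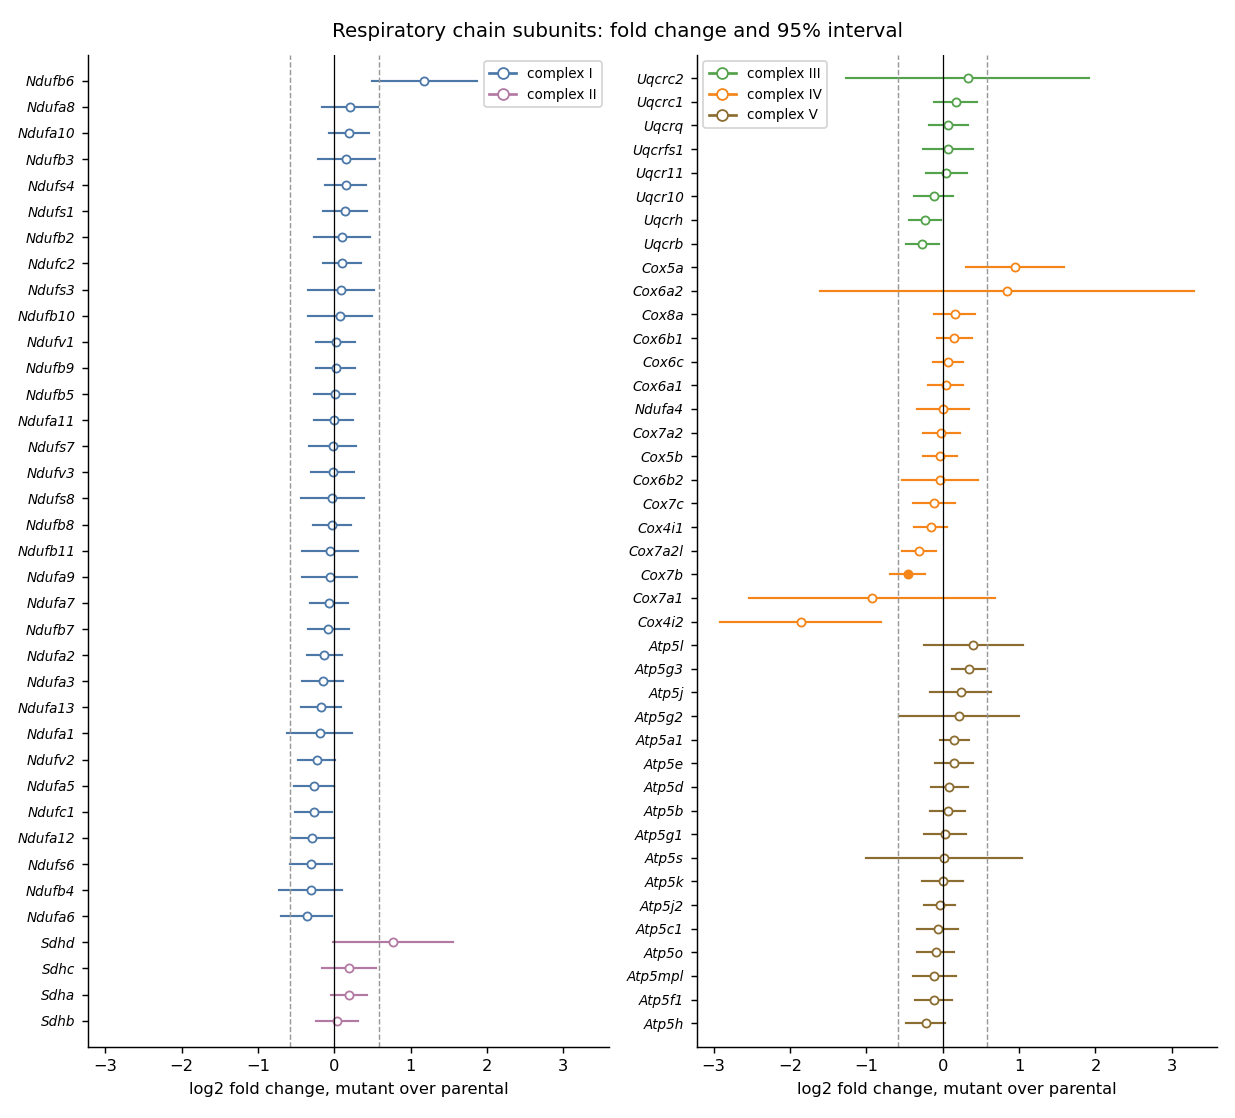
Log2 fold change of 78 of the tested subunits, mutant over parental (points), with its 95% interval (bars), by complex. The solid line marks 0, the dashed lines 1.5-fold in each direction, and the filled point is Cox7b, with an adjusted p under 0.05. Intervals of 63 of the 78 lie between the dashed lines, and the wide ones belong to subunits with few counts, such as Uqcrc2, Cox6a2 and Cox7a1.

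Summed over its subunits, each complex had a similar level in both lines. Complex I summed to 3685 ± 150 CPM (SD, n = 4) in the parental and 3527 ± 101 in the mutant line, and complex IV to 3060 ± 222 and 2945 ± 70.2. The sums of complex III were 1187 ± 24.8 and 1113 ± 94.6. Complex II summed to 347 ± 25.6 in the parental and 388 ± 28.3 in the mutant line, and complex V to 3934 ± 204 and 4129 ± 128. In each of the 5 the libraries of the lines overlapped. All 89 subunits together took 1.08% to 1.26% of a library's counts, with a mutant to parental ratio of 0.991 on the CPM scale. The lowest total was that of parental library 4, at 11353 CPM, and the other 7 libraries lay between 11957 and 12678.

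**Figure D2:**
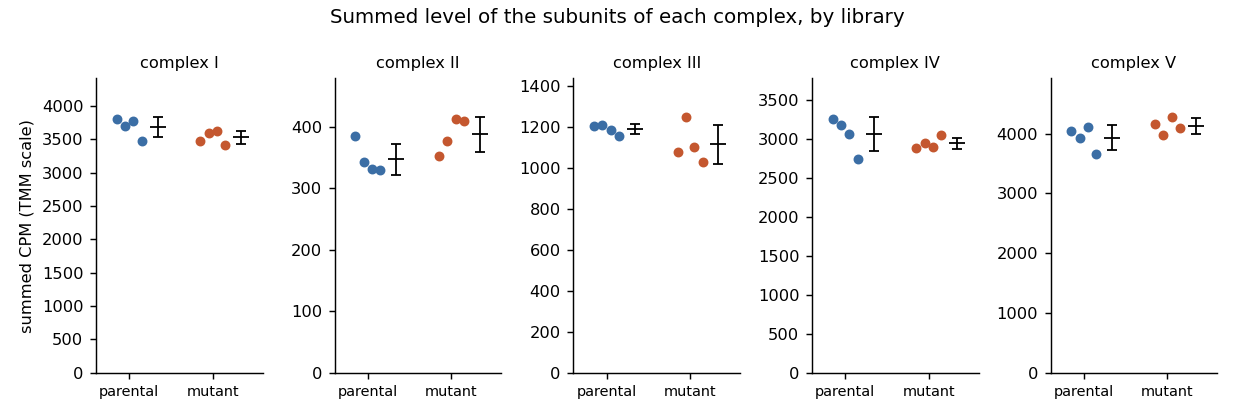
Summed level of the subunits of each complex (CPM on the TMM scale, axes from 0) in 4 parental and 4 mutant libraries (points, in replicate order), with the mean and SD beside them. The lines overlap in every complex: complex I averages 3685 in the parental and 3527 in the mutant line, and complex V 3934 and 4129.

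Complex I takes electrons from NADH and hands them to ubiquinone. None of its 34 tested subunits was called by edgeR, while 1 was higher and 5 were lower at an unadjusted p under 0.05, and DESeq2 called Ndufb6. In all, 13 lay above 0 and 21 below, and the median log2 fold change was -0.03. The core subunits of its matrix arm described here did not pass the test. Ndufv1, which binds NADH, was at 123 ± 5.41 CPM (SD, n = 4) in the parental and 125 ± 14.5 in the mutant line. Ndufs1, with iron-sulfur clusters, had a log2 fold change of 0.14 ± 0.14 (SE), and Ndufs3, Ndufs7 and Ndufs8 had 0.09 ± 0.20, -0.02 ± 0.15 and -0.03 ± 0.20. The partner of Ndufv1 in the NADH-binding module, Ndufv2, had -0.23 ± 0.12.

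Among the accessory subunits of complex I, which surround the core, the one nearest to the threshold was Ndufb6 (chr4:40270591-40279421, minus strand), of the membrane arm. It had 7.09, 9.87, 9.57 and 6.95 CPM in the parental libraries and 22.8, 9.81, 23.1 and 20.3 in the mutant libraries. Mutant libraries 1, 3 and 4 were above every parental library, and mutant library 2 was inside the parental range. The log2 difference was 1.18 ± 0.33, with an adjusted p of 0.0867 in edgeR and 0.0289 in DESeq2. It was 0.0245 in edgeR without mutant library 2.

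The accessory subunits with lower means had smaller differences and none was called. Ndufc1, of the membrane arm, was at 151, 157, 131 and 141 CPM in the parental libraries and 118, 121, 119 and 122 in the mutant libraries, without overlap. Its log2 difference was -0.27 ± 0.11 (edgeR adjusted p = 0.334). Ndufs6, a zinc-binding subunit next to the NADH-binding module, had -0.31 ± 0.13 (adjusted p = 0.357), and its mutant library 2, at 119 CPM, was inside the parental range of 116 to 142. Of the 5 subunits of complex I that were lower at an unadjusted p under 0.05, the other 3 were Ndufa5, Ndufa6 and Ndufa12, picked for naming after their values were seen, with log2 differences of -0.26, -0.36 and -0.29. The most abundant subunits of complex I were the accessory subunits Ndufa2, with means of 216 and 197 CPM, and Ndufa7, with 205 and 196. The accessory subunit Ndufa10 had 0.19 ± 0.12.

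Complex II, succinate dehydrogenase, links the citrate cycle to the chain. All 4 subunits had means above those of the parental line and none was called by edgeR or DESeq2, nor had an unadjusted p under 0.05, with a median log2 fold change of 0.19. Sdha, the flavoprotein, had 123, 122, 113 and 131 CPM in the parental libraries and 136, 135, 136 and 152 in the mutant libraries. The lines did not overlap, and the log2 difference was 0.19 ± 0.11 (edgeR adjusted p = 0.549). Sdhb, the iron-sulfur subunit, had 149.8 ± 17.9 and 154 ± 22.8 CPM (SD, n = 4). Sdhc, a membrane anchor, had 61.6 ± 14.0 and 70.5 ± 5.24. The other anchor, Sdhd, had 6.36, 14.7, 21.2 and 12.01 CPM in the parental and 14.5, 12.6, 32.0 and 34.4 in the mutant libraries, which overlap. Its log2 difference was 0.77 ± 0.37, with an interval that just includes 0.

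Complex III passes electrons from ubiquinol to cytochrome c. Its median log2 fold change was 0.06. None of its 8 subunits was called by edgeR or DESeq2, and 2 were lower at an unadjusted p under 0.05. The hinge protein Uqcrh had 415, 423, 399 and 415 CPM in the parental libraries and 331, 383, 382 and 312 in the mutant libraries. Uqcrb, a small subunit near the ubiquinone site, had 187, 193, 189 and 188 CPM in the parental and 154, 165, 147 and 163 in the mutant libraries. In both genes every mutant library was below every parental library. The log2 differences were -0.23 ± 0.10 for Uqcrh (edgeR adjusted p = 0.359) and -0.27 ± 0.10 for Uqcrb (0.297). The Rieske iron-sulfur protein Uqcrfs1 had 0.06 ± 0.16, the core protein Uqcrc1 0.17 ± 0.14 and the small subunit Uqcrq 0.07 ± 0.12.

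The second core protein, Uqcrc2, was listed at only 3.91 ± 2.08 CPM in the parental and 4.87 ± 4.57 in the mutant line, while Uqcrc1, its partner, was at 128 and 144. Such gaps between subunits of one complex occurred elsewhere too. Cox5a stood at 9.57 and 18.5 CPM beside Cox5b at 189 and 185, and Ndufs5, a complex I subunit, had no more than 5 counts in any library. Ndufb6 averaged 13.7 CPM over all libraries, the lowest of the tested complex I subunits, whose median was 111 CPM. Sdhd averaged 18.5 CPM, the lowest in complex II, whose median was 98.5 CPM. In a 3′ end assay a level depends on whether the counted annotation covers the transcript end in use, which was not tested here. It also depends on near-copies that share reads. In the last 300 bases of Ndufs5 transcripts, 47.8% of 50-base stretches also occurred in the processed pseudogene BC002163. That pseudogene averaged 7.34 CPM, and its part in the low Ndufs5 count was not tested. Levels of these genes are compared between the lines only, and whether both lines use the same transcript ends was not tested.

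Complex IV, cytochrome c oxidase, reduces oxygen to water. It held the called gene, had 16 tested subunits with 7 above and 9 below 0, and had a median of -0.03. Cox7b (ENSMUSG00000031231.4, chrX:106015700-106022450, plus strand, GRCm38) had 187, 192, 209 and 171 CPM in the parental libraries. The mutant libraries had 142, 138, 133 and 139 CPM. All 4 mutant libraries were below all parental libraries and lay close together. The means were 189.6 ± 15.5 and 138 ± 3.79 CPM (SD, n = 4), and the log2 difference was -0.46 ± 0.11, with a 95% interval from -0.69 to -0.23 and an edgeR adjusted p of 0.0430. The call was near the threshold. The difference stayed between -0.51 and -0.42 when each library was left out, but the adjusted p was 0.0880, 0.15 and 0.168 without parental library 1, 2 or 3, and 0.0745, 0.0655, 0.0898 and 0.0565 without mutant library 1, 2, 3 or 4. It was 0.0400 without parental library 4, 0.0833 with library size alone as the scaling, and 0.00300 in DESeq2.

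Cox4i2 (chr2:152754173-152765037, plus strand), the alternative form of the regulatory subunit 4 that is known as hypoxia-responsive, had the largest fold difference of the 79 in the edgeR fit and just missed the threshold. It had 16.2, 13.6, 18.03 and 14.1 CPM in the parental libraries and 1.68, 8.06, 1.09 and 6.60 in the mutant libraries. Every mutant library was below every parental library, with mutant libraries 1 and 3 the lowest. The log2 difference was -1.86 ± 0.50 with an edgeR adjusted p of 0.0784. The adjusted p was 0.0139 in DESeq2, 0.0211 in limma-voom, and 0.0286 and 0.0378 without mutant library 2 or 4. The ubiquitous form, Cox4i1, was at 378 ± 36.3 and 339 ± 21.9 CPM, with a log2 difference of -0.16 ± 0.10.

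Other subunits of complex IV differed in both directions without passing the test. Cox5a, a subunit on the matrix side, had 9.09, 10.9, 12.8 and 5.48 CPM in the parental and 17.6, 16.6, 20.7 and 19.0 in the mutant libraries, with every mutant library above every parental library. Its log2 difference was 0.94 ± 0.31 (edgeR adjusted p = 0.167). Cox7a2l, which joins complexes III and IV into supercomplexes, had 236, 270, 238 and 220 CPM in the parental and 185, 183, 199.6 and 209 in the mutant libraries. The lines did not overlap, and the log2 difference was -0.31 ± 0.11 (adjusted p = 0.202). The 2 most abundant subunits were Cox7c, at 529 ± 97.5 and 489 ± 72.8 CPM, and Cox6c, at 405 ± 13.6 and 425 ± 21.3. Cox5b, which binds zinc, had -0.03 ± 0.11, and Cox6b1, on the face towards the intermembrane space, 0.15 ± 0.11.

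**Figure D3:**
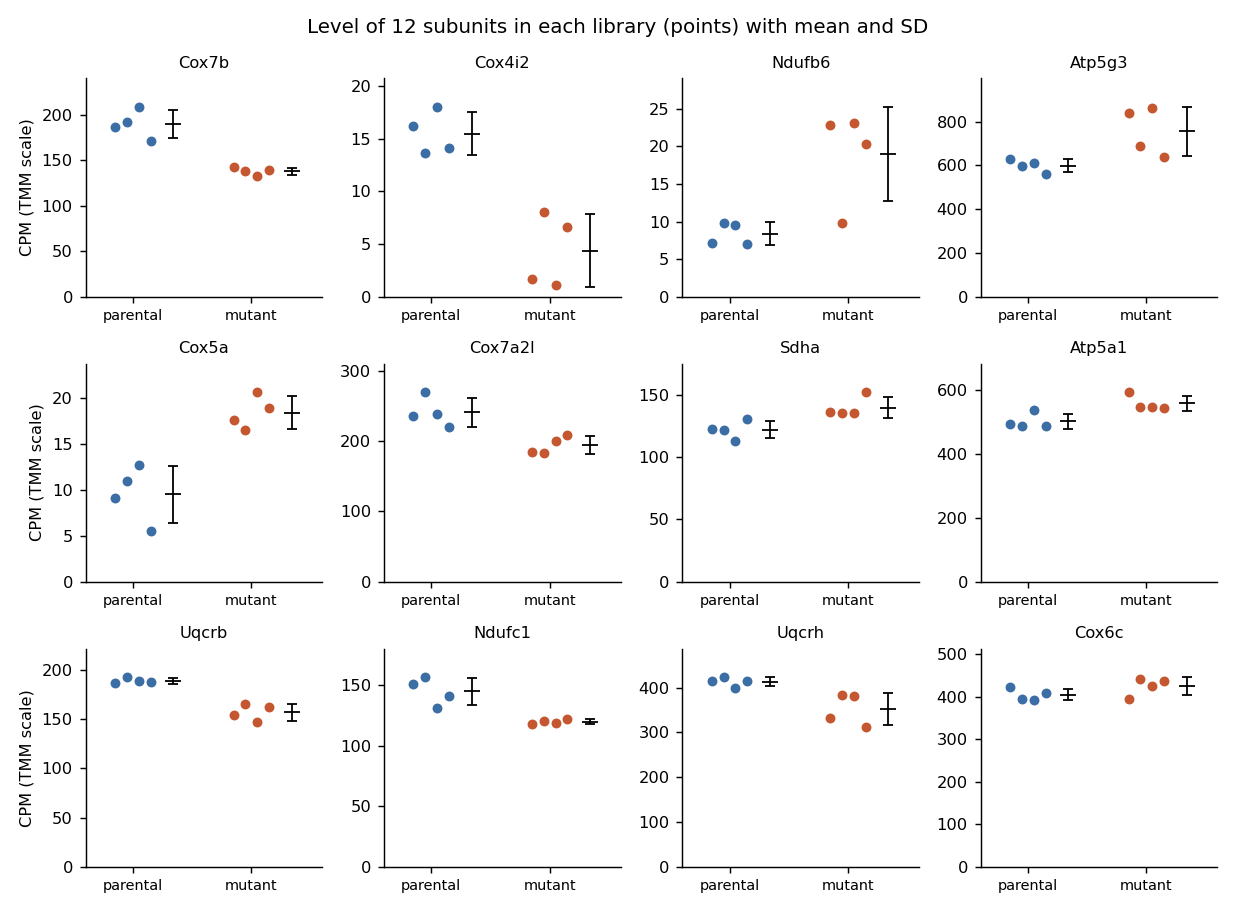
Level of 12 subunits (CPM on the TMM scale, axes from 0) in 4 parental and 4 mutant libraries (points, in replicate order), with the mean and SD beside them. Cox7b lies between 171 and 209 in the parental and between 133 and 142 in the mutant libraries; mutant library 2 keeps Ndufb6 from separating, and Cox6c overlaps.

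Several subunits of complexes IV and V exist as isoforms from separate genes, so the share of one gene in its pair was followed. Cox4i2 made up 3.68%, 3.40%, 4.74% and 4.00% of the Cox4i1 and Cox4i2 counts in the parental libraries. In the mutant libraries it made up 0.473%, 2.53%, 0.302% and 1.95%. The lines did not overlap, with means of 3.95% ± 0.577 and 1.31% ± 1.10 (SD, n = 4). The nearest pair was parental library 2, with a 95% exact Clopper-Pearson interval of 2.69% to 4.23%, and mutant library 2, with 1.78% to 3.46%, and those intervals overlap. They cover counting error only.

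The striated muscle forms were rare in both lines. Cox7a1 made up 1.89% ± 1.01 of the Cox7a1 and Cox7a2 counts in the parental and 1.02% ± 0.851 in the mutant line, and Cox6a2 made up 0.696% ± 1.19 and 1.21% ± 0.848 of the Cox6a1 and Cox6a2 counts. Both overlapped, and the highest Cox7a1 share, 3.29%, and the highest Cox6a2 share, 2.47%, were both in parental library 1. The testis-type Cox6b2 made up 15.3% ± 2.53 and 13.6% ± 5.57 of the Cox6b1 and Cox6b2 counts. The other muscle, testis and hypoxia forms were near or at 0: Cox8b and Cox8c had no count in any library, Cox7b2 no more than 2, and Ndufa4l2 no more than 22.

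**Figure D4:**
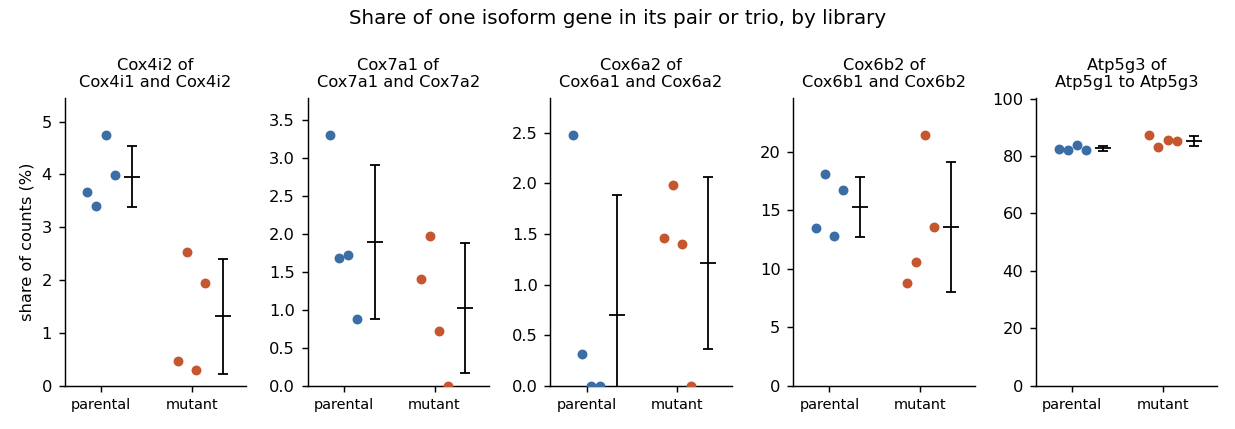
Share of counts (percent) of one isoform gene in its pair or trio, in 4 parental and 4 mutant libraries (points, in replicate order), with the mean and SD beside them; each panel has its own axis from 0. The Cox4i2 share lies between 3.40 and 4.74 in the parental and between 0.302 and 2.53 in the mutant libraries, and the Cox7a1, Cox6a2 and Cox6b2 shares overlap.

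Complex V had 17 tested subunits, 11 above and 6 below 0, and a median of 0.03. None was called by edgeR, and 1, Atp5g3, was higher at an unadjusted p under 0.05 and called by DESeq2. Its c ring, which turns as protons pass, is encoded by Atp5g1, Atp5g2 and Atp5g3, whose mature proteins are identical. Atp5g3 (chr2:73908447-73911326, minus strand) was the most abundant of all the subunits. It had 629.9, 596, 610.0 and 560.1 CPM in the parental libraries and 839, 688, 863 and 638 in the mutant libraries. Every mutant library was above every parental library, with libraries 1 and 3 the highest. The log2 difference was 0.34 ± 0.10, with an adjusted p of 0.139 in edgeR and 0.0414 in DESeq2, and 0.0475 in edgeR without mutant library 4. Atp5g3 gave 82.6% ± 0.920 of the counts of the trio in the parental and 85.3% ± 1.69 in the mutant line, which overlap. Atp5g1 had 0.03 ± 0.13 and Atp5g2, at 8.38 and 9.70 CPM, had 0.21 ± 0.37.

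In the catalytic head, Atp5a1 (alpha) had 492, 488, 538 and 488 CPM in the parental libraries and 593, 546, 546 and 545 in the mutant libraries. The lines did not overlap, although parental library 3 came near the mutant libraries, and the log2 difference was 0.15 ± 0.09 (edgeR adjusted p = 0.549). Atp5b (beta) was at 497 ± 47.6 and 519 ± 71.5 CPM, and Atp5c1 (gamma) at 165 ± 22.1 and 158 ± 18.3. In the stalk that holds the head, Atp5h had -0.22 ± 0.12 and Atp5f1 -0.12 ± 0.12. The other subunits of complex V lay between -0.11 and 0.40 on the log2 scale.

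The 10 subunits that were not tested had too few counts for the filter. Of these, Ndufa11b, Ndufb4c, Ndufs6b and Cox6c2 are annotated as processed pseudogenes despite their symbols, and had at most 1, 0, 1 and 12 counts in a library. The others were Ndufs5, Cox7b2, Cox8b, Cox8c, Ndufa4l2 and the second Atp5o identifier, which had no count. Near-copies can also split reads among the tested genes. In the last 300 bases of the annotated transcripts, 51 of 79 subunits shared no 50-base stretch with another annotated gene and 28 shared some. Atp5l, Cox7c, Atp5h, Atp5g2 and Ndufs3 shared 70.1%, 65.2%, 59.2%, 55.5% and 53.0% of those stretches, so their levels are uncertain. Cox7b, Cox4i2, Ndufb6 and Atp5g3 shared none, and for Uqcrb the share was 40.6%. For Ndufa12 the share was 27.7%, with the processed pseudogene Gm15920, which averaged 21.1 CPM.

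Genes that serve the same pathway were read from the same model. Of 9 tested carriers and subunits of the chain that the symbols do not reach, none was called, with a median of 0.04. The one nearest to the threshold was Etfa, of the electron transfer flavoprotein that feeds ubiquinone, at 23.2 ± 7.62 CPM in the parental and 50.3 ± 22.5 in the mutant line, with a log2 difference of 1.11 ± 0.28 (edgeR adjusted p = 0.0596, or 0.0231 without mutant replicate 2 and 0.0264 without parental replicate 1). Of 7 tested subunits encoded by mitochondrial DNA, none was called, 5 were above 0, and the median was 0.13. The smallest p was that of mt-Cytb, of complex III, with 0.21 ± 0.09 (adjusted p = 0.356). Another 5 of the 13 mitochondrial subunit genes were listed at 0 in every library (mt-Co2, mt-Co3, mt-Atp6, mt-Atp8 and mt-Nd4l), which for such abundant transcripts does not show absence.

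No gene was called by edgeR among those that assemble and maintain the chain. None of 46 assembly factors was called (19 above 0, 27 below, median -0.06), nor any of 21 regulators of mitochondrial biogenesis (13 above, 8 below, median 0.09). None was called among 74 proteins of the mitochondrial ribosome (30 above, 44 below, median -0.04), 23 genes of the citrate cycle and pyruvate entry (median 0.02) or 21 carriers and import genes (median -0.03). The genes with the smallest p in these lists were Tmem126b (complex I assembly), Myc, Mrps35, Idh3g (citrate cycle) and Slc25a1 (citrate carrier), with log2 differences of -0.78, 1.05, 0.49, -0.50 and -0.60 and adjusted p-values of 0.212, 0.414, 0.147, 0.139 and 0.215 (edgeR). Slc25a1 was called without mutant replicate 2, at a log2 difference of -0.94 (edgeR adjusted p = 0.00564), and without a filter on low counts, at -0.61 (adjusted p = 0.0132). Over these and the preceding mitochondrial lists together, 201 genes were tested, 0 were called by edgeR, 16 had an unadjusted p under 0.05, and the median was -0.02. DESeq2 called 1 of them, Etfa.

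Transcript levels for glycolysis, the other main source of ATP, differed between the lines. Of 32 tested genes of glycolysis and of hypoxia-inducible factor (HIF) targets, 8 were called lower in the mutant line and none higher. Over all genes tested, 0.67% were called lower and 0.745% higher. In all, 27 lay below 0 and 5 above, and the median was -0.64. At an unadjusted p under 0.05, 19 were lower and 3 higher, beside 5.92% of all genes lower and 6.01% higher. Across the alternative settings, 6 to 14 of the 32 were called. Ldha (lactate dehydrogenase) was at 659 ± 87.8 and 309 ± 100.1 CPM (SD, n = 4), a log2 difference of -1.09 ± 0.16 (edgeR adjusted p = 0.00140). Aldoa (aldolase) fell by 0.69 and Slc2a3 (a glucose transporter) by 0.91. Summed over the list, the parental libraries held 3521 to 4454 CPM and the mutant libraries 2140 to 3348, without overlap, so the same libraries that differ in glycolytic transcripts overlapped in the sum of every respiratory complex. That list was chosen with these results known and is no independent evidence. The difference between the lists was not tested.

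**Figure D5:**
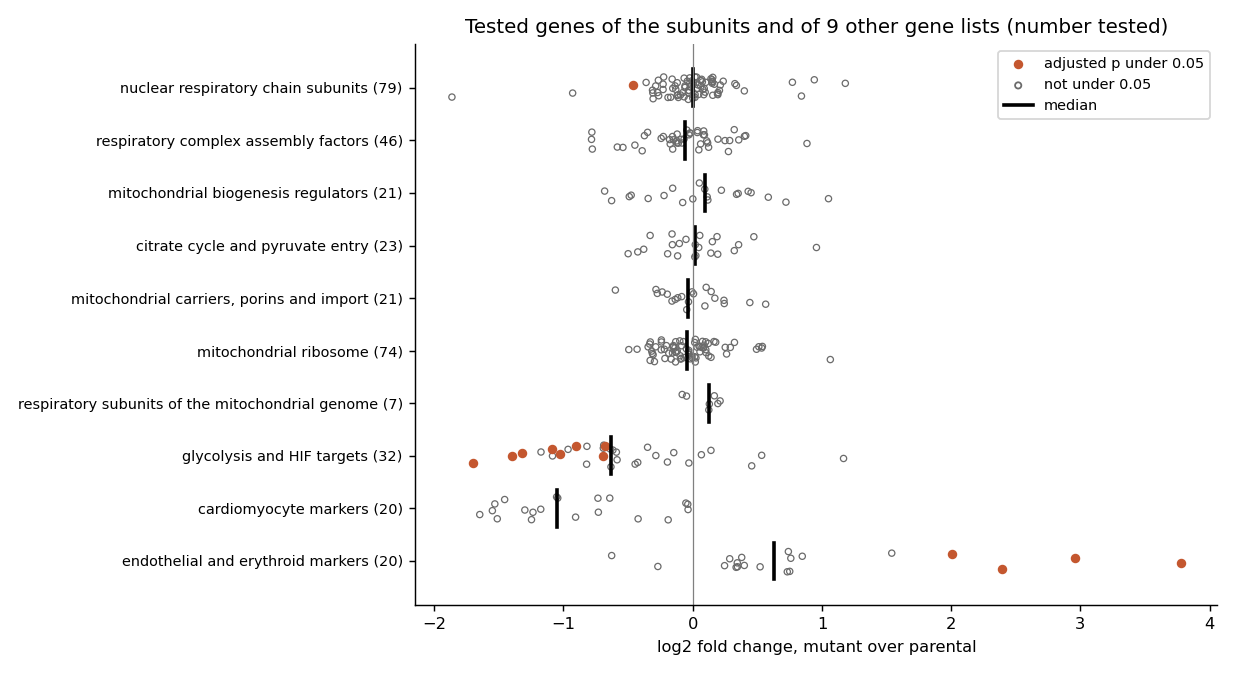
Log2 fold change, mutant over parental, of each tested gene (points, spread vertically for legibility) of the respiratory subunits and of 9 other lists, with the number tested in brackets; filled points have an adjusted p under 0.05 and bars mark medians. The mitochondrial lists centre between -0.06 and 0.13, glycolysis and HIF targets at -0.64 with 8 called genes, cardiomyocyte markers at -1.05 with none called, and endothelial and erythroid markers at 0.63 with 4 called. Those 4 are globin genes.

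Markers of cell types differed as well. Of 20 tested cardiomyocyte markers all 20 were below 0 (median -1.05) and none was called by edgeR or DESeq2, with 8 at an unadjusted p under 0.05. Without a filter on low counts 10 were called, and a replicate block gave 6 calls. Their summed level was 4351, 2410, 1190 and 847 CPM in the parental libraries and 324 to 1344 in the mutant libraries, and Nppb was at 0 in all 8. Of 20 endothelial and erythroid markers 4 rose, Hba-x, Hba-a1, Hbb-bh1 and Hbb-y, the last picked for naming after its values were seen (median 0.63), with summed levels of 612 to 959 and 1277 to 2075 CPM. These 4 are all globin genes, and no endothelial marker was called. The sums include the globins: Hbb-bh1 averaged 106 and 427 CPM in the parental and mutant lines, and Hba-x 31.2 and 242. In the whole list, 18 lay above 0 and 2 below. Of 14 endoderm markers, 2 fell, Foxa2 and Krt18 (sums 415 to 754 and 340 to 461). Neither was called without parental replicate 1, parental replicate 2 or mutant replicate 3 or at a threshold of 0.01. Foxa2 was also not called without parental replicate 3, parental replicate 4 or mutant replicate 2 or in limma-voom. With 1 library left out, the adjusted p reached 0.111 for Foxa2 and 0.0692 for Krt18 (edgeR). Of 16 precardiac mesoderm markers, 3 were called lower, Bmp4, Fgf10 and Tbx1 itself (sums 1763 to 2108 and 1507 to 1738). The list went both ways, with 5 above 0 and 11 below. At an unadjusted p under 0.05, 3 were higher and 8 lower. Fgf10 was not called without parental replicate 1 or 3 or without mutant replicate 1, 2 or 3, with an adjusted p of up to 0.146 (edgeR), nor at 0.01. Klf2 rose among 9 pluripotency markers (sums 63.2 to 89.8 and 83.5 to 118). It was not called without parental replicate 2 or 3 or mutant replicate 1 or 3, with an adjusted p of up to 0.0719 (edgeR), nor at 0.01. Among neural markers, 0 of 5 were called by edgeR, with 1 at an unadjusted p under 0.05. The part of cell composition in the Cox7b and Cox4i2 values was not tested.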

How the data were processed

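Groups and replicate numbers came from the sample titles, and all 8 libraries were used. The authors deposited a table of raw counts per gene and library, without normalization. The submitters' processing notes name STAR, featureCounts and mm10, and the table's name states counting on the forward strand; tool versions, annotation and duplicate removal are not given in the sources used here. Identifiers were matched to GENCODE M21 (GRCm38): 54435 of 55487 were identical and 55141 received a symbol. The subunits and gene lists were chosen with earlier results of these data known.

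Low counts were removed with filterByExpr, libraries were scaled by TMM, and lines were compared with edgeR 4.0.16 in R 4.3.3 (glmQLFit and glmQLFTest, intercept and line, two-sided, Benjamini-Hochberg over 13280 genes, threshold 0.05). Those genes hold 99.5% of counts. Standard errors were taken as the fold change over the root of F. Library depth, 3803561 to 6293907 counts, leaves 10 tested subunits under a mean of 20 CPM, with wide intervals. Within each line, no pair of libraries agreed within sampling noise (chi-square per degree of freedom 7.18 to 25.7).

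Named subunits are the called one, the 2 most abundant per complex, the 2 with the smallest p in each direction per complex, all core catalytic subunits and all isoforms. From each other list up to 3 called genes were named, or else the one with the smallest p. Others are stated as picked after seeing values. A gene that the rule selected is counted but not reported here by name. Core subunits (18 tested) and isoforms (7 tested) had no called gene, with medians of 0.05 and 0.03.

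Alternatives were RLE, upper-quartile and library-size scaling (also without the largest gene), no filter, a minimum mean of 10 counts, DESeq2 1.42.0, limma-voom (limma 3.58.1), a replicate block, equal depth by thinning, a threshold of 0.01, and leaving out each library.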

Additional observations from a re-analysis of the deposited data

Results flagged for a closer look

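In 94 groups of 4 libraries, 1 library lay far from the other 3, by Dixon's test at the 95% level, in 7. Chance alone gives this in about 1 group in 20. Atp5a1 had its highest parental level in library 3 (538 CPM) and its highest mutant level in library 1 (593 CPM), each apart from the rest of its line. Mutant library 4 was apart and highest for Atp5b (626 CPM), Ndufs3 (52.8 CPM) and Sdha (152 CPM), and mutant library 2 for Uqcrc1 (188 CPM). Cox6a2 reached 6.18 CPM in parental library 1 and was at or below 0.718 CPM in the other parental libraries.

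A signal also appeared outside the genes chosen by symbol. Ndufb1-ps, left out for its -ps symbol, averaged 332 counts over the 8 libraries, with 238 to 440 per library, while the other 7 symbols of that kind had at most 8. It was at 64.8 ± 5.49 CPM in the parental and 62.2 ± 7.79 in the mutant line (SD, n = 4), with a log2 difference of -0.06 ± 0.15 (edgeR adjusted p = 0.926).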

How the results depend on the processing

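The subunit result rests on 1 gene at the threshold. The number of subunits called was 0 with library size alone, with library size without the largest gene, with the replicate block and at an adjusted p under 0.01, 2 without a filter and in limma-voom, 4 in DESeq2 (Atp5g3, Cox4i2, Ndufb6 and Cox7b), and 0 to 2 when 1 library was left out. With 7 libraries, 2 were called without mutant replicate 2 (Cox4i2 and Ndufb6) and 2 without mutant replicate 4 (Atp5g3 and Cox4i2). Genes called in all were 439 without a filter, 405 in DESeq2, 86 at 0.01 and 103 to 235 with 1 library left out. Over the other lists 44 were called without a filter and 28 in DESeq2. No label says whether equal replicate numbers pair the cultures. Same-numbered libraries had correlations of -0.03 to 0.10 and the other pairs -0.08 to 0.06. With so few libraries per line, these values cannot decide whether cultures were paired. The replicate block called 234 genes and gave Cox7b an edgeR adjusted p of 0.0642.

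The median over the subunits stayed between -0.05 and 0.04. The median of complex I was 0.011 with library size without the largest gene and -0.079 to -0.029 with 1 library left out. That of complex III was -0.039 in limma-voom, -0.038 with the replicate block and -0.049 to 0.077 with 1 library left out, and its summed log2 ratio was -0.052 with library size without the largest gene and -0.16 to -0.059 with 1 library left out.

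The sign of the log2 difference reversed for the following subunits, with no reversed value at an adjusted p under 0.05. With library size without the largest gene the differences were 0.0094 for Cox5b, 0.0090 for Cox6b2, 0.018 for Ndufs7 and 0.015 for Ndufs8, and with library size alone 0.00077 for Ndufs7. After thinning they were 0.041 for Cox5b, -0.024 for Ndufs3 and 0.010 for Ndufs8. Uqcrc2 was at -0.11 in limma-voom and -0.16 with the replicate block. With 1 library left out the values ranged from -0.041 to 0.10 for Atp5b, -0.14 to 0.0058 for Atp5c1, -0.039 to 0.11 for Atp5g1, -0.33 to 0.14 for Cox6b2, -0.11 to 0.16 for Ndufs3, -0.085 to 0.073 for Ndufs7, -0.11 to 0.074 for Ndufs8, -0.033 to 0.093 for Ndufv1, -0.049 to 0.12 for Sdhb, -0.34 to 0.70 for Uqcrc2 and -0.0058 to 0.17 for Uqcrfs1. The cause was not tested.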
